A study of Mus musculus with 24 samples.

Results

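The genes described here are 10 genes for the proteins of liver lipoproteins and for the assembly of very low density lipoprotein (VLDL), chosen by gene symbol from the 35304 genes of a liver RNA count table. They are Apob, Mttp, Tm6sf2 and Apobec1, which make or alter the VLDL core, Apoa1, Apoa2, Apoa4 and Apom, which are carried mostly on high density lipoprotein (HDL), and Apoe and Apoc1, which govern the uptake of remnant particles. All 10 had enough counts to be tested, among 17275 genes that had. Liver was taken from C57BL/6 mice aged 8 to 12 weeks, kept on night restricted feeding, at 6 zeitgeber times (ZT, counted in hours from lights on): 2, 6, 10, 14, 18 and 22. HepKO mice carried Alb::Cre_+/0 and Bmal1_fl/fl, so that a Cre recombinase driven by the albumin promoter removes the clock gene Bmal1 (Arntl) in hepatocytes, while HepWT mice carried Alb::Cre_0/0 with the same floxed gene. Both genotypes therefore share the floxed allele and the feeding schedule, and no group carried the Cre without the floxed gene. Genotype and time form 12 groups with 2 libraries in each, 24 in all. The labels do not say that libraries of a group are different animals, and p-values then reflect the spread of these libraries alone, which may be technical.

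VLDL is built in the endoplasmic reticulum of the hepatocyte around a single Apob molecule, onto which Mttp loads triglyceride and which Tm6sf2 helps to fill with lipid. In the mouse, liver as well as intestine edits Apob mRNA through Apobec1, and the edited mRNA encodes a shorter protein. HDL forms around Apoa1 secreted by liver and intestine, and its smaller proteins, among them Apoa2 and Apom, are added in the liver and in plasma.

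Depth was lower in 5 libraries, HepKO replicate 2 of every time but ZT2, which hold 12997689 to 16910415 counts each, than in the remaining 19, with 23583035 to 30677807. The column names of these 5 libraries also carry a suffix that no other column has and that the labels do not explain. The 10 genes took 3.56 to 4.14% of the counts in HepWT libraries and 3.9 to 4.32% in HepKO libraries. Albumin (Alb), the gene whose promoter drives the Cre, took 5.65 to 8% in HepWT and 1.89 to 3.56% in HepKO, so levels are given as CPM, the count relative to the library's TMM-scaled total. The Arntl row counts the whole gene, deleted and kept exons together, and does not measure the deletion: it ran from 1.27 to 46.0 CPM over the day in HepWT and from 10.3 to 17.7 CPM in HepKO, with an averaged log2 difference of 0.04 (adjusted p = 0.705). Of markers of other cells, the enterocyte genes Sis, Alpi, Cdx1, Cdh17 and Lct had 0 to 15 counts over all 24 libraries, and only Fabp2 and Vil1 of that list were tested. Fabp2 had 45.7 CPM in HepWT and 35.9 CPM in HepKO.

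Per kilobase of exon, the order of the HepWT levels was Apoa2 (6931 CPM per kb), Apoe (5343), Apoa1 (4149), Apoc1 (3071), Apob (1148), Apom (232.7), Apoa4 (70.0), Mttp (64.9), Tm6sf2 (9.97) and Apobec1 (7.42). Exon length here joins the exons of all GENCODE transcripts of a gene, from 1 transcript for Apoa4 and Apom to 11 for Apoe. It can exceed the length of any single transcript, and its part in the order was not tested. The ranges over the 12 HepWT libraries overlapped between Apoa2 and Apoe, between Apoe and Apoa1, between Apoa4 and Mttp, and between Tm6sf2 and Apobec1, so those neighbours in the order are not set apart by their spread. In HepKO the order was the same down to Mttp, with 139.2 CPM per kb for Apom, and Apobec1 (7.53) then stood before Tm6sf2 (6.81). The place of Apoa4 before Mttp in HepKO (79.05 against 61.6 CPM per kb) rested on HepKO ZT14 replicate 2, described with Apoa4: without it the means were 52.5 and 61.3 CPM per kb, a comparison added after the data were seen. Levels of Apob, the longest of these transcripts at 13934 exon bases, were the highest per library (16002 ± 1276 CPM, SD, n = 12 in HepWT) without being the highest per length. SDs over the 12 libraries of a genotype include the change over the day. Apob lies on chromosome 12 (7977648 to 8016835, GRCm38), Mttp on chromosome 3 (138089854 to 138144968), Apobec1 on chromosome 6 (122577792 to 122602444), Apoe and Apoc1 on chromosome 7 (19696109 to 19699188 and 19689481 to 19692660) and Apoa1 on chromosome 9 (46228580 to 46230466). Mttp shares 457 of its exon bases, 7.36%, with Trmt10a on the opposite strand, which had 5.31 CPM in HepWT beside 402.8 CPM for Mttp.

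**Figure D1:**
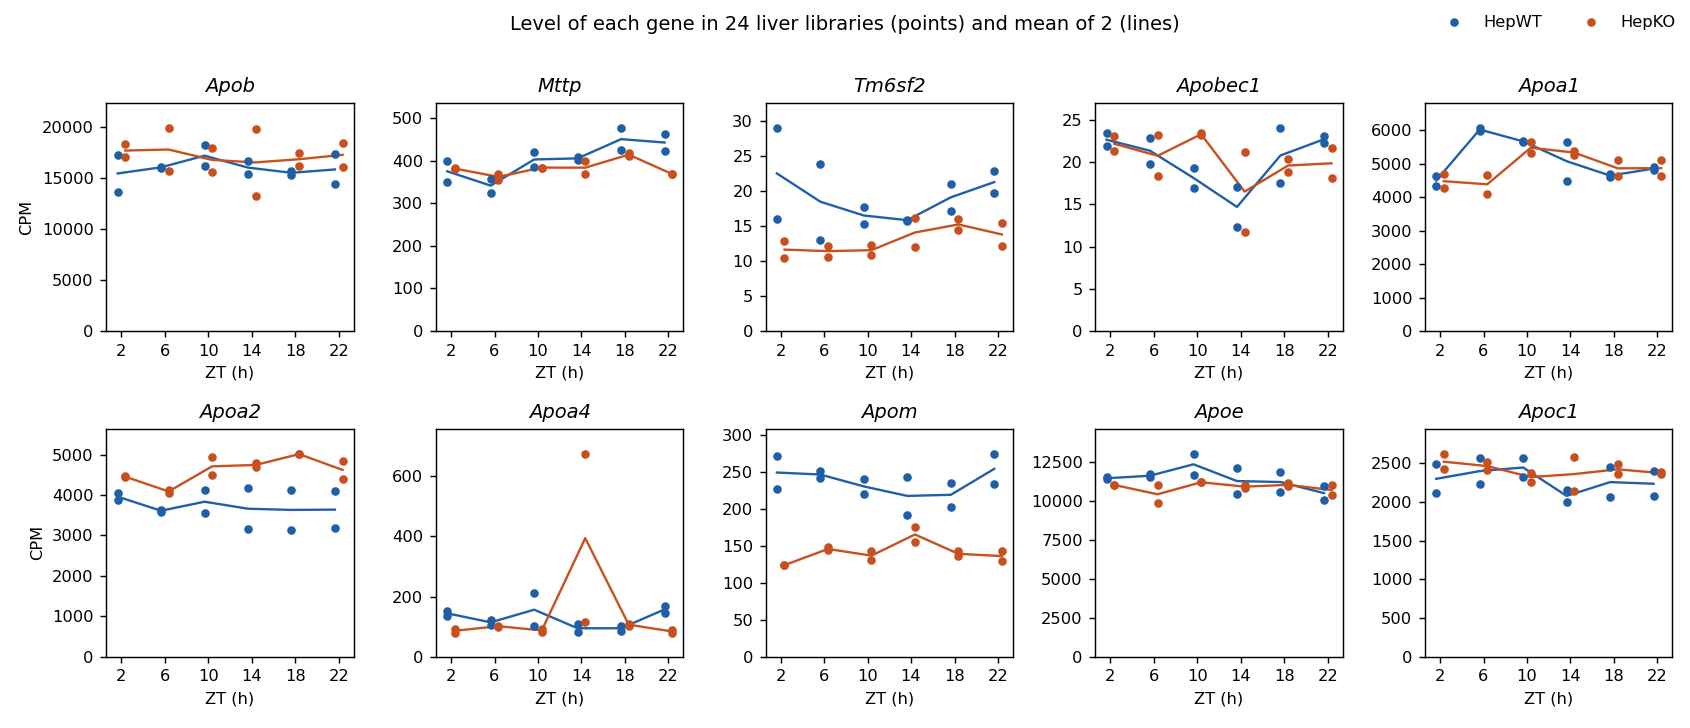
Level in CPM (y axis from 0, own scale for each gene) of the 10 genes against ZT in hours. Points are single libraries (blue HepWT, orange HepKO, 2 per genotype and time) and lines join the means of 2. HepKO libraries lie below all HepWT libraries for Apom, and 1 HepKO library at ZT14 lies at 673.9 CPM for Apoa4.

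Averaged over the 6 times, HepKO liver held less Apom and less Tm6sf2 mRNA than HepWT liver and more Apoa2 mRNA. The other 7 genes, among them the abundant Apob, Apoe and Apoa1, did not pass the test. Thus 3 of 10 were called at a Benjamini-Hochberg adjusted p below 0.05 by edgeR's quasi-likelihood test over all genes tested, against 26.5% of all genes. In HepKO 1 of the 10 was higher, against 13.2% of all genes, and 2 were lower, against 13.3%. A share of 3 in 10 is near the share of all genes, so the number called is not a result about these 10. Of all called genes 49.8% were higher in HepKO, and 66.9% with scaling by total counts alone. That scaling moved the median log2 difference of all genes from -0.01 to 0.045, and turned the direction of none of the 10 genes. The median over the 10 genes was -0.06, beside -0.01 over all genes tested.

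**Figure D2:**
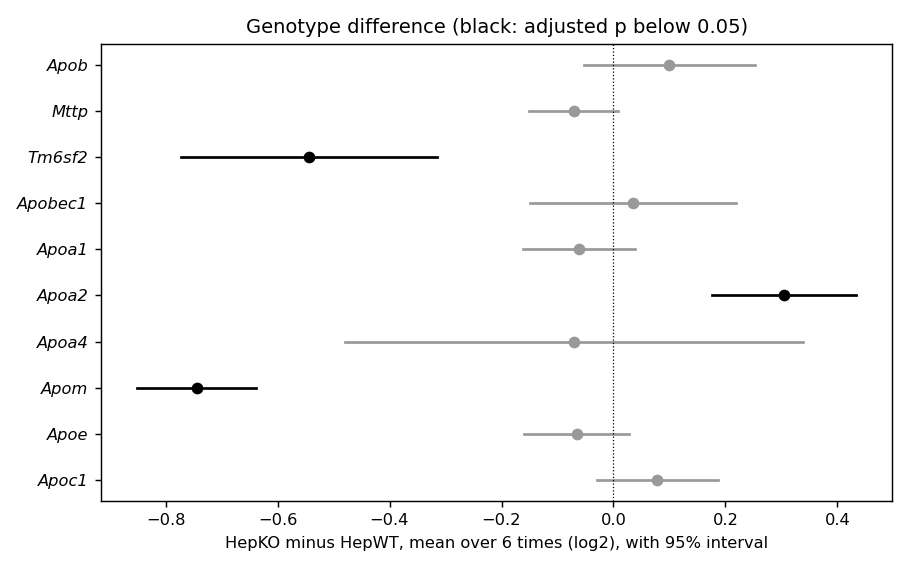
Log2 difference HepKO minus HepWT averaged over 6 times (x axis) for the 10 genes, as the fitted value (point) with its 95% interval (line). Apom (-0.74), Tm6sf2 (-0.54) and Apoa2 (0.30), in black, passed the test over all genes; the widest interval is that of Apoa4.

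Apom encodes the HDL protein that binds sphingosine-1-phosphate and carries it in plasma. In the 12 HepWT libraries its level was lowest at 191.8, had a median of 237.5 and reached 273.7 CPM; in the 12 HepKO libraries the lowest, median and highest were 123.7, 142.5 and 175.1 CPM. Every HepKO library was therefore below every HepWT library, which held for 1.43% of all genes in either direction. The fitted level was 1.68-fold lower in HepKO (log2 -0.74 ± 0.05 SE, edgeR adjusted p = 7.93e-09), and it was lower at 6 of 6 times. It stayed between -0.76 and -0.715 with any 1 library left out.

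The fitted Apom difference ran from its largest size at ZT2 to its smallest at ZT14. At ZT2 the HepWT libraries held 226 and 271.4 CPM and both HepKO libraries 123.7 CPM, a log2 difference of -1.01 ± 0.12 (SE). At ZT14 the values were 191.8 and 242.5 CPM in HepWT and 155.1 and 175.1 CPM in HepKO, a difference of -0.40 ± 0.12. The difference passed edgeR's test at ZT2, ZT6, ZT10, ZT18 and ZT22 (adjusted p = 0.000281, 0.0018, 0.000817, 0.00503 and 0.000742) and missed it at ZT14 (0.0605), where DESeq2 (0.026), the fit with a replicate block (0.0354) and the fit without HepWT ZT14 replicate 1 (log2 -0.545, 0.0239) passed it. Without HepWT ZT14 replicate 2 the ZT14 difference was -0.209 (edgeR adjusted p = 0.478). At ZT18 the call was lost without HepKO replicate 1 (-0.615, 0.079) or without HepWT replicate 2 (-0.555, 0.0746). That the difference varies with time was not shown: the interaction of genotype and time had an unadjusted p of 0.0427 and an edgeR adjusted p of 0.484.

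Apom lies on chromosome 17 (GRCm38, 35128997 to 35132050, minus strand). The 30 bases shown are chr17:35131816-35131845 on the minus strand, 44 to 15 bases before the start that RefSeq gives (GRCm38.p6) and inside the first exon that GENCODE M21 gives, which begins 249 bases further upstream. They are printed because Apom had the largest averaged difference of the 10 genes, and because they hold a nuclear receptor half-site, in capitals.
Apom: tagcaggttaaaGGGTCAagggtcgaggcg
Windows of 300 bases, from 250 before to 50 after the RefSeq start, were on hand for 8 of the 10 genes (not Apoc1 and Tm6sf2) and were searched on both strands. The RefSeq start of Mttp lies 1550 bases inside the GENCODE start, with all 250 bases before it in GENCODE exons. The bases before the GENCODE start of Mttp were therefore not searched. The same holds nearly in full for Apom, with 249 of the 250 bases before its RefSeq start in GENCODE exons. For Apoa4, Apoa1 and Apob the RefSeq start lies 148, 50 and 29 bases inside. The half-site (AGGTCA or GGGTCA) stood 2 times in the Apom window and 1 time in the Apoe window, and in none of the other 6 windows. It stands in 27.5% of all 32851 such windows. The E-box CACGTG, which the Bmal1 protein binds with a partner, stands in 7.15% of all windows and the D-box TTATGTAA in 0.938%, and neither stands in any of the 8. A match is a run of letters and not a site shown to be bound, and letters outside a window were not searched.

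Tm6sf2 encodes the membrane protein of the endoplasmic reticulum that takes part in loading lipid onto VLDL. Its lowest, median and highest HepWT levels were 13.1, 17.45 and 29.0 CPM, and its HepKO levels 10.4, 12.2 and 16.1 CPM. The genotypes overlapped: 7 HepWT libraries were above the highest HepKO library, and 8 HepKO libraries were below the lowest HepWT library. The fitted level was 1.46-fold lower in HepKO (log2 -0.54 ± 0.11 SE, edgeR adjusted p = 0.00106) and lower at 6 of 6 times. At single times the difference ran from -0.95 at ZT2 (16.1 and 29.0 CPM in HepWT, 10.4 and 12.9 CPM in HepKO) to -0.18 at ZT14 (15.9 and 15.8 against 12.0 and 16.1 CPM), and none of the 6 passed the test. Without HepKO ZT14 replicate 2, the library at 16.1 CPM, the ZT14 difference was -0.389, and the smallest was that of ZT18 (-0.33). Leaving out any 1 library gave -0.60 to -0.46 with the call kept. The gene lies on chromosome 8 (70072924 to 70080066, GRCm38).

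Apoa2 encodes the small protein that is second to Apoa1 on HDL. Its HepWT levels had a lowest value of 3130, a median of 3758 and a highest of 4165 CPM, and its HepKO levels 4046, 4585 and 5013 CPM. Of the 12 HepKO libraries, 10 were above every HepWT library. The fitted level was 1.24-fold higher in HepKO (log2 0.30 ± 0.06 SE, edgeR adjusted p = 0.00117), higher at 6 of 6 times, from 0.17 at ZT2 to 0.46 at ZT18, with no single time passing the test.

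The HepWT libraries of Apoa2 fell into a higher and a lower set at the later times. At ZT10, 14, 18 and 22, HepWT replicate 1 held 4112, 4165, 4132 and 4093 CPM, and replicate 2 held 3555, 3155, 3130 and 3183 CPM. At ZT2 and ZT6 the values were 3879 and 3637 CPM in replicate 1 and 4039 and 3584 CPM in replicate 2. Over the 6 times HepWT replicate 2 was below replicate 1 by -0.22 ± 0.09 (log2, SE), which missed the test over all genes (adjusted p = 0.304). None of the 10 genes passed that test, against 0.469% of all genes. By edgeR 4 had an unadjusted p below 0.05, and the share of all genes at that unadjusted p was not counted. The Apoa2 difference was 0.20 against HepWT replicate 1 alone (adjusted p = 0.00296) and 0.42 against HepWT replicate 2 alone (1.35e-05), so its size and not its call depended on which HepWT libraries were used.

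**Figure D3:**
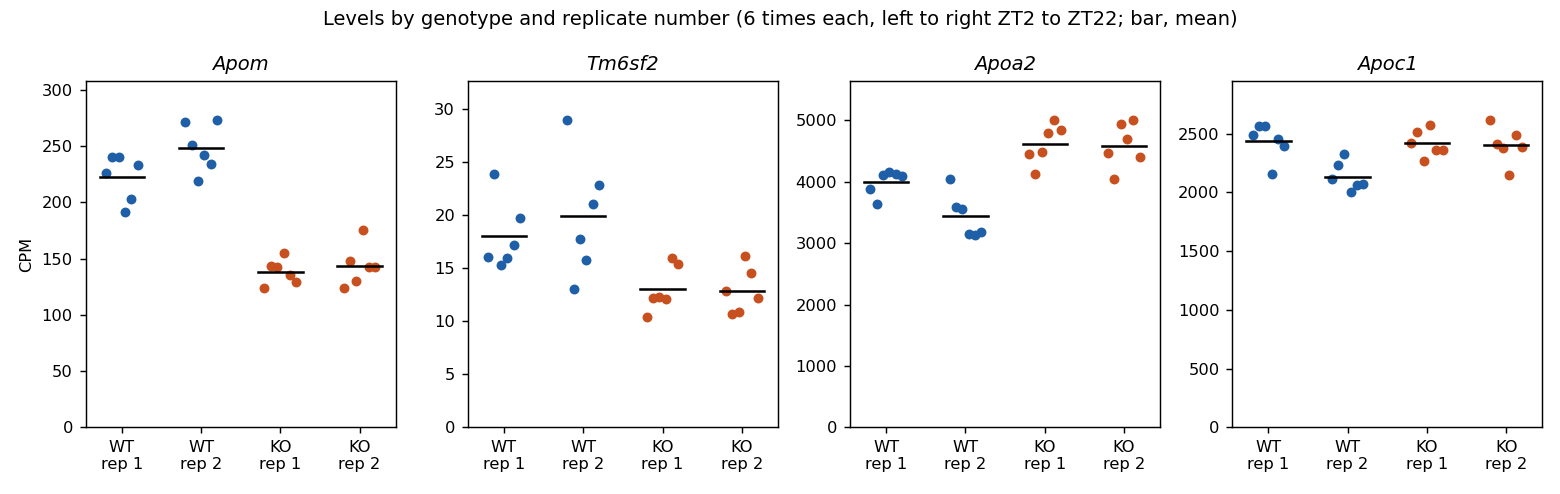
Level in CPM (y axis from 0) of Apom, Tm6sf2, Apoa2 and Apoc1 by genotype and replicate number, with 6 libraries in each column from ZT2 (left) to ZT22 (right) and their mean as a bar. For Apoa2 and Apoc1 the HepWT replicate 2 means (3441 and 2134 CPM) lie below those of replicate 1 (4003 and 2437 CPM), while the HepKO replicates lie together.

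Apoa2 lies on chromosome 1 (171225054 to 171226379, GRCm38, plus strand). The 250 bases before its start, chr1:171224804-171225053, are printed as the upstream sequence of the 1 gene of the 10 that rose. They lie in no GENCODE M21 exon and hold none of the 3 motifs searched, so no letters are in capitals.
Apoa2: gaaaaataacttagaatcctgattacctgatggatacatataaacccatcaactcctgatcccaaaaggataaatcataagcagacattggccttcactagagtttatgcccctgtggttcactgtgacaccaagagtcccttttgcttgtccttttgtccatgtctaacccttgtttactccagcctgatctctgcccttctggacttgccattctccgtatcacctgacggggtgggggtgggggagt

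Apoa1, the main HDL protein and the activator of the cholesterol-esterifying enzyme Lcat, differed at 1 time of day only by the test. At ZT6 the HepWT libraries held 6063 and 5984 CPM and the HepKO libraries 4679 and 4095 CPM, 1.37-fold lower in HepKO (log2 -0.46 ± 0.12 SE, edgeR adjusted p = 0.0312). The call was lost with scaling by total counts (-0.38, 0.0707) and without HepKO ZT6 replicate 1 (-0.57, 0.0574), HepKO ZT6 replicate 2 (-0.37, 0.291), HepWT ZT6 replicate 1 (-0.46, 0.102) or HepWT ZT6 replicate 2 (-0.465, 0.0879). At the other 5 times the difference lay between -0.05 and 0.07, and the average over times was -0.06 ± 0.05 (adjusted p = 0.377).

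Apoa4, an apolipoprotein of chylomicrons and HDL that the intestine and the liver make, had 1 library far above the rest. HepKO ZT14 replicate 2 held 673.9 CPM, while the other HepKO library of that time held 114.5 CPM, the next highest HepKO value, and the HepWT libraries of that time held 81.9 and 107.6 CPM. Among 11366 genes ranked by how far this library lay above the next highest HepKO library, Apoa4 was the first, at 2.56 (log2). At ZT14 the fitted difference was 2.055 ± 0.49 (SE, edgeR adjusted p = 0.0142), and without that library it was 0.28 (adjusted p = 0.697). The call was also lost without HepWT ZT14 replicate 1 (1.88, adjusted p = 0.123) or replicate 2 (2.28, adjusted p = 0.0584).

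Apart from that library, Apoa4 read lower in both HepKO libraries than in both HepWT libraries at ZT2, ZT10 and ZT22, by more than at ZT6. At ZT2 the HepWT libraries held 136.5 and 152.4 CPM and the HepKO libraries 93.6 and 79.4 CPM. ZT10 gave 101.4 and 211.6 CPM in HepWT and 92.6 and 82.7 CPM in HepKO, and ZT22 gave 169.6 and 145.6 against 89.4 and 79.0 CPM. The genotypes lay closer at ZT6 (122 and 106.8 against 103.2 and 100.1 CPM) and ZT18 (102.5 and 87.15 against 103.1 and 110.3 CPM). The averaged difference was -0.07 ± 0.19 (adjusted p = 0.836) with all libraries. Without HepKO ZT14 replicate 2 it was -0.365, 1.29-fold lower, and the ZT10 difference was -0.82. That library is singled out by its own Apoa4 level, so the values without it are a description and not a test. The ZT10 difference also leans on HepWT ZT10 replicate 2 (211.6 CPM, beside 101.4 CPM in replicate 1). Without HepWT ZT10 replicate 2 the averaged difference was 0.035, and without HepKO ZT14 replicate 1 it was 0.06.

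Other genes of the 10 also had extreme values in HepKO ZT14 replicate 2. Its Apob level (13265 CPM) was the lowest of all 24 libraries, as was its Apobec1 level (11.8 CPM). Its Apom level (175.1 CPM) and Tm6sf2 level (16.1 CPM) were the highest in HepKO. Without it, the averaged differences were -0.76 for Apom, -0.58 for Tm6sf2 and 0.31 for Apoa2, all 3 still called, and 0.145 for Apob (adjusted p = 0.109). This library is 1 of the 5 with fewer counts and a column suffix of their own, and the part of either in its values was not tested. The Apoa4 gene (chromosome 9, 46240696 to 46243459, plus strand) shares 632 of its exon bases, 34.8%, with Gm10680 on the opposite strand. Gm10680 had 16.2 CPM in that library and 3.22 CPM in the next highest HepKO library. The sources used here do not give the strand setting of the counting, so reads of the 2 genes cannot be told apart where they overlap.

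**Figure D4:**
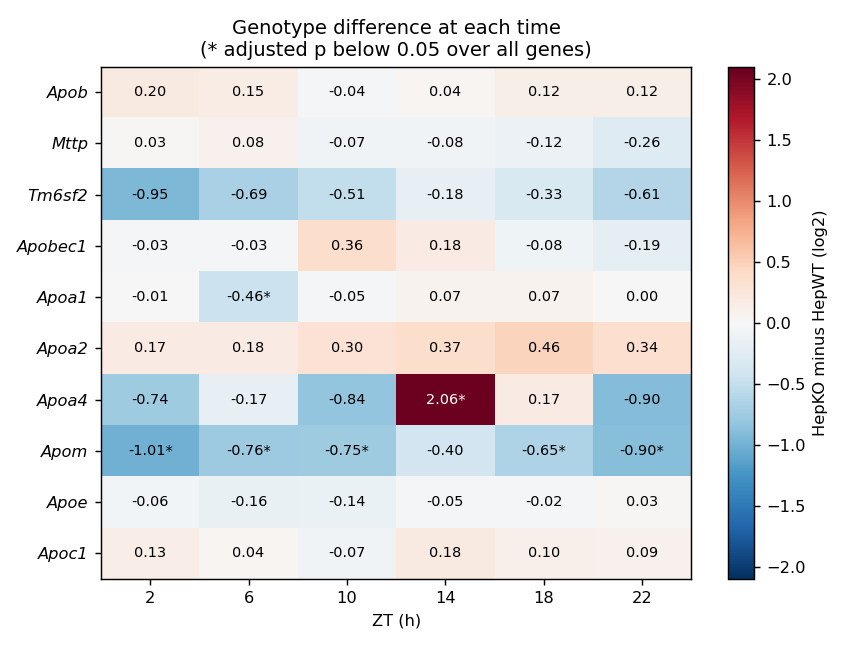
Log2 difference HepKO minus HepWT at each ZT in hours (columns) for the 10 genes (rows), as colour and number, with a star where the adjusted p over all genes is below 0.05. Apom is starred at 5 of 6 times, Apoa1 at ZT6 and Apoa4 at ZT14, the last resting on 1 library.

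Counted over single times, 1 of the 10 genes was called at ZT2, against 1.86% of all genes, and 2 at ZT6, against 4.96%. There was 1 at ZT10, against 7.71%, and 1 at ZT14, against 7.64%. ZT18 and ZT22 had 1 each, against 3.79% and 1.35%. Apom made 5 of these 7 calls. With fewer than 3 genes called at any time, the counts describe Apom, Apoa1 and Apoa4 and say nothing of the 10 as a set.

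Apart from Tm6sf2, the genes that build VLDL did not pass the test of the averaged difference. Apob ran from 13607 to 18189 CPM in HepWT (median 16041) and from 13265 to 19873 CPM in HepKO (median 17278). The genotypes overlapped, with 4 HepKO libraries above and 1 below the HepWT range, and the difference was 0.10 ± 0.07 (95% interval -0.05 to 0.25, adjusted p = 0.349). Mttp, the microsomal transfer protein, ran from 324.7 to 476 CPM in HepWT (median 405.2) and from 355 to 417.1 CPM in HepKO (median 381.4), with a difference of -0.07 ± 0.04 (95% interval -0.15 to 0.01, adjusted p = 0.182). Its HepKO values were the less spread, with an SD of 18.7 CPM against 43.9 CPM, a difference that was not tested. Apobec1, the cytidine deaminase, had medians of 20.8 CPM in HepWT and 21.3 CPM in HepKO and a difference of 0.035 ± 0.09 (adjusted p = 0.819). Since the 95% intervals reach 0.25 for Apob and 0.22 for Apobec1 on the log2 scale, equal levels are not shown.

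Apoe, the ligand by which remnants are taken up, had medians of 11537 CPM in HepWT and 11030 CPM in HepKO. Although 8 HepWT libraries were above the highest HepKO library, the difference was -0.07 ± 0.045 and missed the test (adjusted p = 0.314). Against HepWT replicate 1 alone it was -0.12 and passed (adjusted p = 0.0455), and against replicate 2 alone it was -0.01 (adjusted p = 0.869). Apoc1, a small apolipoprotein that slows remnant uptake, had medians of 2278 and 2399 CPM and a difference of 0.08 ± 0.05 (adjusted p = 0.297). Its difference also depended on the HepWT replicates used and was -0.01 against replicate 1 alone (adjusted p = 0.882) and 0.18 against replicate 2 alone (adjusted p = 0.0166).

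Apoe is also made by macrophages. Of 12 Kupffer cell and macrophage markers, 11 were lower and 1, Mpeg1, was higher in HepKO (median log2 -0.385), while their summed level ran from 348.5 to 640.6 CPM in HepWT and from 345.8 to 652 CPM in HepKO. Mpeg1 had means of 59.0 CPM in HepWT and 95.1 CPM in HepKO, which enter that sum. HepWT replicate 2 was above replicate 1 by a median log2 of 0.273 over these markers, so the size of their difference depends on the HepWT libraries. The part of macrophages in the Apoe and Apoc1 values was not tested. In whole liver, fewer cells of a type and less RNA per cell cannot be told apart.

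Ratios between 2 of the genes in the same library do not depend on scaling, and 7 were compared by an exact permutation of genotype within times (two-sided, 46656 permutations, adjusted over the 7). Apom counts were 4.6% of Apoa1 counts in HepWT and 2.88% in HepKO, a log2 difference of -0.68, lower at 6 of 6 times (adjusted p = 0.0003 by exact permutation, from the smallest p these permutations can give, 4.29e-05). Tm6sf2 per Apob fell by 0.62 on the log2 scale, lower at 6 of 6 times (exact permutation, adjusted p = 0.000975). Counts of Apoa2 were 72.7% of those of Apoa1 in HepWT and 94.1% in HepKO, a rise of 0.37 on the log2 scale, at 6 of 6 times (exact permutation, adjusted p = 0.000599). These 3 ratios carry the genes already called and are not separate evidence for them.

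Neighbouring genes on chromosome 7 gave a difference in their ratio that neither gene gave alone. Apoc1 per Apoe was 20% in HepWT and 22.1% in HepKO, higher by 0.145 at 6 of 6 times (exact permutation, adjusted p = 0.0008), and the log2 ratio ran from -2.49 to -2.17 in HepWT and from -2.36 to -2.03 in HepKO. Against HepWT replicate 1 alone it was 0.10 and missed the threshold (exact permutation, adjusted p = 0.0528). Mttp per Apob was lower by -0.165 at 6 of 6 times (exact permutation, adjusted p = 0.0476), a call that 15 of 24 fits with 1 library left out did not keep (-0.182 to -0.107 in those 15, exact permutation, adjusted p up to 0.197). The 9 libraries without which it was kept were HepWT ZT2, ZT6 and ZT10 replicate 1, HepWT ZT18 and ZT22 replicate 2, HepKO ZT6 and ZT10 replicate 1, and HepKO ZT2 and ZT14 replicate 2. Apobec1 per Apob (-0.07, exact permutation, adjusted p = 0.615) and Apoa4 per Apoa1 (-0.07, exact permutation, adjusted p = 0.852) did not pass.

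A 24 h cosine was called in HepWT for 2 of 10, against 30.3% of all genes, and in HepKO for 1 of 10, against 14.3%. Shares this near those of all genes are not a result about the 10. In HepWT, Mttp had an amplitude (mean to peak) of 0.17 in log2 units and a peak near ZT18.1 (edgeR adjusted p = 0.00529). Its 2 HepWT libraries at ZT18 held 476 and 424.8 CPM and those at ZT6 324.7 and 357.8 CPM, a peak to trough ratio of 1.27 in the fit. In HepKO the Mttp amplitude was 0.06 (adjusted p = 0.533), and the difference between the rhythms was not shown (adjusted p = 0.531).

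Apoa1 in HepWT had an amplitude of 0.175, a peak near ZT8.6 and an adjusted p of 0.0307. Its call was lost without either HepWT library of ZT6 (adjusted p = 0.0742 and 0.0823), ZT10 (0.0626 and 0.0648) or ZT18 (0.0586 and 0.0542), and without the 5 libraries of low depth (0.0656). The HepKO call was that of Apoa4 (amplitude 0.885, peak near ZT13.8, adjusted p = 0.0308). Without HepKO ZT14 replicate 2 its amplitude was 0.14 (adjusted p = 0.773), and without HepKO ZT2 replicate 2 it was 0.92 with an adjusted p of 0.0534. Apobec1 had the next smallest p in HepWT (amplitude 0.28, adjusted p = 0.0575). Its lowest HepWT mean was at ZT14 (12.3 and 17.05 CPM), while the HepKO libraries of that time held 21.2 and 11.8 CPM.

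No gene of the 10 was called for a difference between rhythms, against 1.5% of all genes. The smallest edgeR adjusted p values were those of Apom, Apoa4 and Apoa1 (0.184, 0.212 and 0.367). The fitted Apom peak was near ZT2.3 in HepWT and near ZT13.3 in HepKO, with amplitudes of 0.12 and 0.13 and no rhythm called in either (adjusted p = 0.195 and 0.181). By edgeR none was called for an interaction of genotype and time, against 1.12% of all genes, and the smallest adjusted p was that of Apoa4 (0.167). DESeq2 called 1, and the share of all genes that it called was not counted.

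Genes beside the 10 on their chromosomes showed different values. In the cluster on chromosome 9, Apoa1 and Apoa4 flank Apoc3, the inhibitor of lipoprotein lipase, which rose by 0.18 ± 0.05 (adjusted p = 0.0134), and Apoa5, an activator of that lipase, lay at 0.05 (adjusted p = 0.615). In the cluster on chromosome 7, downstream of Apoe and Apoc1, Apoc4 lay at 0.095 (adjusted p = 0.0974) and Apoc2 at -0.25 (adjusted p = 0.269). Apart from Apoc3, none of the genes of both clusters passed the test of the averaged difference.

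Of 17 other apolipoprotein genes tested, 4 were higher and 5 lower in HepKO, with a median log2 difference of 0.01. Apoh, which binds phospholipid and heparin, rose 1.37-fold (1355 ± 98.7 against 1855 ± 104.4 CPM, SD, n = 12), and Apon rose 1.20-fold. Saa4, a constitutive HDL protein, was 1.95-fold lower, and Apol9b 1.43-fold lower. The number lower was 3 without any 1 of 8 libraries: HepKO ZT2, ZT18 and ZT22 replicate 1, HepKO ZT10 replicate 2, HepWT ZT2 replicate 1, and HepWT ZT6, ZT14 and ZT18 replicate 2. It was 2 against HepWT replicate 1 alone, with a block in HepWT only, with a cosine for time and at a threshold of 0.01, and 3 against HepWT replicate 2 alone and with limma-voom. At a threshold of 0.01, 2 were higher.

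Apob mRNA editing partners, 3 genes, had no call. Rbm47, the RNA-binding partner of Apobec1, lay at 0.235 ± 0.09 (adjusted p = 0.0578). It passed without HepKO ZT10 replicate 1 (adjusted p = 0.0345), HepKO ZT14 replicate 2 (0.0314), HepKO ZT22 replicate 1 (0.03) or HepWT ZT22 replicate 2 (0.00875), and with DESeq2 (0.0351), no filter (0.000184) or scaling by totals (0.0159). The Rbm47 p-value without a filter is not read as evidence, for the reason given with the alternatives below. Syncrip lay at 0.08 (adjusted p = 0.272) and A1cf, the complementation factor, at -0.015 (adjusted p = 0.953).

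Of 25 partners in VLDL assembly and secretion, 2 were higher and 8 lower, with a median of -0.08. Ces1d, a lipid droplet carboxylesterase, was 3.18-fold lower (779 ± 309 against 234.9 ± 56.6 CPM, SD, n = 12, edgeR adjusted p = 5.01e-09). Dgat2, which makes triglyceride, was 1.37-fold lower and Tor1a, an ATPase of the endoplasmic reticulum, 1.35-fold lower. Pla2g12b, a secreted protein that takes part in VLDL lipid loading, was 1.27-fold higher, and its rhythm had an amplitude of 0.485 in HepWT and 0.15 in HepKO (difference between rhythms, adjusted p = 0.0164). Without the 5 libraries of low depth, 5 of the 25 were lower, and with scaling by total counts 4 were higher.

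Lipoprotein remodelling and uptake had 9 genes higher and 5 lower of 27 tested, with a median of -0.02, and 9 were lower when no filter was applied. Lpl, lipoprotein lipase, rose 9.13-fold (47.4 ± 27.8 against 385.6 ± 73.5 CPM) and Lipc, hepatic lipase, 1.60-fold, while Lipg, endothelial lipase, was 2.90-fold lower. Pon1, the HDL-bound paraoxonase, rose 1.41-fold. Of these 3 lipases 2 rose and 1 fell, in the same livers in which Apom fell and Apoa2 rose.

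Transcription factors described as acting at some of the 10 genes were more often lower than higher in HepKO: 13 lower and 4 higher of 25, with a median of -0.14. Nr1d2, a clock repressor, was 3.33-fold lower, Ppara, the fatty acid sensing receptor, 1.73-fold lower and Cebpa, a liver-enriched factor, 1.47-fold lower. The 24 h amplitude of Nr1d2 was 1.57 in HepWT and 1.10 in HepKO (log2), and the difference between the rhythms missed the threshold (edgeR adjusted p = 0.0527). With HepWT replicate 2 alone 8 of the 25 were lower. Without the 5 libraries of low depth, and at a threshold of 0.01, 1 was higher. The counts of all 5 lists are read beside the 13.2% higher and 13.3% lower of all genes, and none was tested as a set.

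Genes whose levels ran most like each of the 10 were sought by Pearson's r of log2 CPM over the 24 libraries among 11365 other genes, as a description, since libraries share their genotype, time and depth. For Apom these were Steap2 (r = 0.941), Alb (0.939) and Tent5a (0.933). Within HepWT alone r was 0.448, 0.635 and 0.501, and within HepKO alone 0.515, 0.269 and 0.836, so the likeness over 24 libraries was stronger than that within a genotype. Alb itself was 2.56-fold lower (63916 ± 7972 against 25009 ± 4309 CPM, SD, n = 12). The gene most like Apoa2 was Cyp2d22 (0.918; 0.845 within HepWT and 0.635 within HepKO), followed by Tle5 (0.894) and Slc25a1 (0.878).

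For Tm6sf2 the nearest were Atp5mpl (r = 0.867), Cbr1 (0.858) and Idh2 (0.848). Apob ran with Vps13c (0.871), Wnk1 (0.852) and Zbtb33 (0.833), and within each genotype r with Vps13c was 0.891 and 0.856. Vps13c and Wnk1 have 16299 and 22825 exon bases, so the 2 share great length with Apob (13934), and the part of transcript length was not tested. Apoa4 ran with Gm10680 on the opposite strand (0.862), then Sirt6 (0.661) and Rdh16f2 (0.654). Within HepWT alone these r were 0.776, 0.347 and 0.520, and within HepKO alone 0.914, 0.802 and 0.796. HepKO holds ZT14 replicate 2, the library of highest Apoa4, and its part in these r was not tested. Of the 702 exon bases of Gm10680, 632 overlap exons of Apoa4, so shared reads cannot be told apart from a shared level. Mttp ran with Plod1 (0.855), Kpna3 (0.827) and Pklr (0.819), and Apoe with Mpdu1 (0.856), Coasy (0.843) and Ndrg2 (0.832).

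The lowest leading values were those of Apoa1, with Slc25a22 (r = 0.752), Abi2 (0.730) and Ppp2r2d (0.723). Apobec1 ran with Trit1 (0.812), Slfn2 (0.767) and Tmem80 (0.753), and Apoc1 with Cadm1 (0.868), Skap2 (0.861) and Cfhr3 (0.812). Among the 10 genes, the strongest likeness over 24 libraries was between Apom and Tm6sf2 (0.755; 0.459 within HepWT, 0.295 within HepKO), and the strongest opposition between Apom and Apoa2 (-0.783; -0.430 and -0.056). Both pairs join genes called by genotype, and within a genotype r was weaker. Apoa2 and Apoe ran together within both genotypes (0.750 and 0.574) although r over all 24 libraries was 0.119. The neighbours Apoa1 and Apoa4 had r = 0.235, and the neighbours Apoe and Apoc1 had 0.654 within HepWT and -0.077 within HepKO, a difference that was not tested.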

How the data were processed

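The authors deposited raw counts per gene (whole numbers, Ensembl identifiers) for 24 mouse liver libraries. Per the labels' protocols these came from stranded, ribosome-depleted total RNA read in pairs; per the submitters' processing notes reads were aligned with STAR 2.4.0i to mm10. The sources used here do not give the counting tool, annotation or strand setting.

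Counts were fitted with edgeR 4.0.16 (R 4.3.3, limma 3.58.1): TMM scaling, filterByExpr (minimum count 10, minimum total 15), quasi-likelihood F test, two-sided, Benjamini-Hochberg adjusted p below 0.05 over 17275 genes. A model with 12 groups (12 residual degrees of freedom) gave genotype differences averaged over times, at each time, and the interaction; a 24 h cosine model (18 residual degrees of freedom) gave rhythms. Ratios between 2 genes used log2 counts with 0.5 added. Between both libraries of a group, the squared deviation from the counts expected by library total averaged 9.77 to 64.2 times that of counting alone over genes. Abundant genes weigh most in that mean, and it was not found for the 10 genes alone. Positions are from GENCODE M21 (GRCm38), promoter windows from RefSeq (GRCm38.p6); 35203 of 35304 genes had a position.

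Members, lists and tests were chosen with earlier results of these data known, and the motifs after the results were seen. Named genes were the 10, Arntl and Alb, up to 4 genes of smallest p in each of 5 lists, up to 3 list genes of smallest p for the difference between rhythms, and the 3 genes most alike to each of the 10; cluster neighbours, marker genes and those of the closing section were chosen outside this rule. A gene that the rule takes is not reported here. Of 6 marker lists, hepatocyte genes had 2 higher and 1 lower of 9 tested, enterocyte 0 and 1 of 2, macrophage 1 and 11 of 12, stellate 1 and 3 of 8, endothelial 0 and 4 of 6, and adipocyte 0 and 0 of 4. The 3 stellate genes that were lower, Col1a1, Col1a2 and Col3a1, also differed between HepWT replicates. Replicate 2 was above replicate 1 by 1.22, 0.87 and 1.20 (log2, edgeR adjusted p = 0.0101, 0.013 and 0.00646). The models were tested on simulated data. There 63% of genes with a log2 genotype difference of 0.5 were called and 93% of those with 1, and 6.59% of the calls were false. Of HepWT rhythms simulated with a log2 amplitude of 0.5, 50% were called, and 5.66% of the rhythm calls were false. Alternatives were DESeq2 1.42.0, limma-voom, other scalings, filters and thresholds, replicate blocks, subsets of libraries and leaving out each library, where the lone library left in a group was taken to be as variable as libraries elsewhere.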

Additional observations from a re-analysis of the deposited data

How the results depend on the processing

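Apom, Tm6sf2 and Apoa2 kept direction and call for the difference averaged over times in every alternative run. Calls of the 10 genes summed over the 6 single times, where 1 gene can be called at several times, were 7 in the main fit. They were 6 to 10 in 4 alternatives that keep all libraries. All genes called (4572) became 2928 at a threshold of 0.01 and 2886 without the 5 libraries of low depth, where fewer libraries were fitted, and 4094 to 4569 with 1 library left out. Without a filter 5 of the 10 were rhythmic in HepWT, 2 differed in rhythm and 1 had an interaction. That fit gave Apoa4 an edgeR adjusted p of 3.63e-75 for the interaction, against 0.167 with the filter. Its p-values, that of Rbm47 among them, are therefore not read as evidence. DESeq2 also gave 1 interaction, and limma-voom and the fit without the 5 libraries gave 0 rhythms in HepKO. Shares of all genes under these settings were not counted, and the cause was not tested. With 1 library left out these counts were 1 to 3, 0 to 0, 0 to 1 and 0 to 1 (rhythm in HepWT, rhythm difference, interaction, rhythm in HepKO). Directions reversed for uncalled values: A1cf 0.035 with total counts and 0.171 against HepWT replicate 2; Apoa4 0.010 with a block in HepWT only, 0.022 with a cosine for time and 0.032 against HepWT replicate 1; Apobec1 -0.079 against HepWT replicate 2; Apoc1 -0.015 with a block in HepWT only and -0.014 against HepWT replicate 1. Apobec1 per Apob was 0.083 against HepWT replicate 1 and 0.064 without the 5 libraries. Apoc1 per Apoe was 0.102 against HepWT replicate 1. Mttp per Apob was -0.169 and -0.161 against HepWT replicate 1 and 2, and -0.173 without the 5 libraries. With 1 library left out, ranges were -0.365 to 0.060 for Apoa4, -0.047 to 0.096 for Apobec1, -0.083 to 0.082 for A1cf, -0.285 to 0.136 for Apoa4 per Apoa1 and -0.222 to -0.107 for Mttp per Apob.

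By replicate number, HepKO and HepWT libraries of a time showed no clear pairing: the correlation of same-numbered deviations was -0.133 to 0.121 over 6 times, above 0.1 at 1. That correlation cannot show sets of libraries that run over the times within 1 genotype. Between HepWT replicates 0.469% of all genes were called. With a replicate block 3 of the 10 genes were called (4597 of all genes), and their calls summed over single times were 8. The block gave 0 of the 10 for the interaction, 2 and 1 for rhythm in HepWT and HepKO and 0 for the rhythm difference. The Apom difference with the block was -0.742. How far depth limits each of the 10 genes was not tested.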

Other observations

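HepKO ZT14 replicate 2, the library with the high Apoa4 level, also held the highest HepKO level of other genes, chosen here after their values were seen. After Apoa4 and Gm10680, the genes farthest above the next HepKO library were Abcd2, a peroxisomal fatty acid transporter (23.7 against 7.84 CPM), and Sgk1, a kinase induced by glucocorticoid and osmotic signals (79.5 against 36.4 CPM). Ddit3 and Asns, both targets of the amino acid and endoplasmic reticulum stress response, had 14.1 against 7.39 CPM and 4.93 against 2.58 CPM. Cyp4a14, a fatty acid hydroxylase, had 585.1 against 315.5 CPM, and Socs3, a target of cytokine signals, 16.2 against 8.92 CPM. Also high were Ccdc149 (8.60 against 4.73 CPM), Gcc1 (36.8 against 21.2 CPM) and Mgst3 (8.14 against 4.71 CPM). Whether these genes share a function was not tested. Apoa4 is the gene of the 10 with such a value: the next, Apom, was 0.175 (log2) above the next HepKO library and ranked 475 of 11366. These are values of 1 library with no replicate of their own.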
